A study of Mus musculus with 6 samples.

Results

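The 8 genes described here code for the mitochondrial calcium uniporter complex and for the calcium exchangers of the inner mitochondrial membrane. They are the pore subunit Mcu, its paralogue Mcub, the small membrane subunit Smdt1 (EMRE), the gatekeepers Micu2 and Micu3, the assembly factor Mcur1, and the exchangers Letm1 and Slc8b1 (NCLX). They were listed by name, with no threshold on a measured value, and are 8 of the 54532 genes in the count table. All 8 passed the filter on low counts that left 14774 genes for testing. RNA was measured by poly-A RNA-seq of the left ventricle in 3 TG and 3 NTG mice, 4 weeks after aortic banding (AB), a constriction of the aorta that puts the left ventricle under pressure overload. The mice were males, 8 to 10 weeks of age when banded. TG animals have the genotype HINT2CTG-Myh6Cre, in which human HINT2 behind a CAG promoter is switched on by a tamoxifen-activated Cre that the Myh6 promoter drives in cardiomyocytes, and NTG animals are listed as C57BL/6J. Whether NTG mice carried the Cre or received tamoxifen is not given in the sources used here. Every heart compared here was banded, and no sham-operated heart was analysed here, so the effect of banding itself cannot be read from these values.

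Mitochondria take up calcium through the uniporter, a channel that uses the membrane potential of the inner membrane. Mcu lines the pore, Mcub is a paralogue that joins the pore and lowers its conductance, and EMRE is needed for the pore to conduct and ties it to the gatekeepers. Micu proteins sense calcium in the intermembrane space through EF hands and keep the pore shut at resting calcium. Calcium leaves the matrix mainly in exchange for sodium through NCLX in the heart, whereas Letm1 has been described as a cation and proton exchanger. In cardiomyocytes, matrix calcium stimulates dehydrogenases that feed the respiratory chain, and an overload of it opens the permeability transition pore.

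Total counts on genes lay between 14863568 and 17581220 per heart and differed little between groups. The share of counts from the mitochondrial genome was 13.4% to 19.2% in NTG and 16.0% to 21.5% in TG. Mouse Hint2 had 12, 545 and 559 counts in NTG 1 to 3 and 793, 828 and 859 in TG 1 to 3. The library labelled NTG 1 thus goes against its label, and its identity is in doubt. The log2 fold change of Hint2 was 1.33 (SE 0.86, edgeR adjusted p = 0.433). Counts on the mouse gene do not directly measure the human transgene. By the chi-square per gene between the counts of paired libraries, NTG 1 was nearer to the TG libraries (17.8 to 28.1) than to NTG 2 (71.2) or NTG 3 (33.1). Such nearness across groups was not particular to NTG 1. TG 2 was also nearer to NTG 1 (17.8) and NTG 3 (28.5) than to TG 1 (32) or TG 3 (36.8). NTG 1 was kept in the NTG group as labelled, and the values of the members are also given without it. Summed cardiomyocyte markers (8 genes) were at 19695 to 32763 counts scaled to library size (CPM) in NTG and 31421 to 38822 in TG. Each of those markers was above 0 in at least 1 library, which bears on heart muscle but not on the chamber. Summed erythroid markers (5 genes) were at 1310 to 2245 CPM in NTG and 762 to 908 CPM in TG. Those of smooth muscle (4 genes) were at 130 to 155 CPM in NTG and 202 to 225 CPM in TG. Neither sum overlapped between the groups. All 5 erythroid markers were fitted lower, 4 of them called lower by DESeq2. Among the smooth muscle markers 3 were fitted higher, 2 of them called higher by DESeq2, and 1 was fitted lower. Summed fibroblast markers did not overlap either, at 3766 to 7286 CPM in NTG and 2139 to 3344 CPM in TG, with 7 of 7 genes fitted lower and 3 called lower by DESeq2. The part of these cells in the results was not tested. The atrial markers Myl7, Myl4 and Sln together reached 67.4 CPM in NTG 1, 29.2 in TG 2 and 167 in TG 3 against 2.18 to 4.54 in the other 3 libraries, so 3 libraries labelled left ventricle held more atrial message than the others.

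The stretch around the transcription start is shown for Mcu, Mcub, Smdt1 and Micu2, since the results turn on these genes. Each sequence runs 5′ to 3′ on the strand of the gene, from 250 bases before the annotated start to 50 bases from it on, and comes from RefSeq on the GRCm38.p6 build. Smdt1 lies at chr15:82345796-82346095 on the plus strand, Mcu at chr10:59616643-59616942 on the minus strand, Mcub at chr3:129970157-129970456 on the minus strand and Micu2 at chr14:57999213-57999512 on the minus strand. For Mcu, Mcub and Micu2 the start is the first base of the gene as counted. The Smdt1 window instead lies inside the span used for its counts, chr15:82338959-82349091. Capitals mark the motif matches named after them.
Smdt1: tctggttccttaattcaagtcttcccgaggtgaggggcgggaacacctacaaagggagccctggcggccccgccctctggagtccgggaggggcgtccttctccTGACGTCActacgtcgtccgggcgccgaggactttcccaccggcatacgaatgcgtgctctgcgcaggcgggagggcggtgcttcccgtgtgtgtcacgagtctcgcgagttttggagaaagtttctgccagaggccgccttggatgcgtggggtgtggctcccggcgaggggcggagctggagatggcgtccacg
Mcu: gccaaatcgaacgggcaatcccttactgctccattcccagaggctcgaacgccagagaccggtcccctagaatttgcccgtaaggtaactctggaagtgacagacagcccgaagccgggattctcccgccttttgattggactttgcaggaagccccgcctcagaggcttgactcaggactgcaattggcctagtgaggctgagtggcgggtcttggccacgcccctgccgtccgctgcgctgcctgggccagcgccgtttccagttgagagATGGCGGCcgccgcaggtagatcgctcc
Mcub: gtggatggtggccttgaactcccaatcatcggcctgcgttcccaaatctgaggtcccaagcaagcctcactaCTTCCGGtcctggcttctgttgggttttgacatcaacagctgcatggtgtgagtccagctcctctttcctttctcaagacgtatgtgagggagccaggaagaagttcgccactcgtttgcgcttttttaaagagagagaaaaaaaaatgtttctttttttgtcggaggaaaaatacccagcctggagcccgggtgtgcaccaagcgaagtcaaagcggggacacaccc
Micu2: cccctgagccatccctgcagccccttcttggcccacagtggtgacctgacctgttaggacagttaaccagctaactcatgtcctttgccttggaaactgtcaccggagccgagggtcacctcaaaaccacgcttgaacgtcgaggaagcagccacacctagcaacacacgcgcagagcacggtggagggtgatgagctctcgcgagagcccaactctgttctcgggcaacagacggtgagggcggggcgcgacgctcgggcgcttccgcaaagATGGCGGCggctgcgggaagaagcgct
RefSeq promoters were found for 6 of the 8 genes, without Micu3 and Slc8b1. The motifs were picked after these sequences had been seen, were searched as exact letters on both strands, and are descriptions of letters and not of binding. The YY1 letters ATGGCGGC were found in Mcu and Micu2, where they begin 22 and 23 bases after the start site counted as 0, and in 2.24% of all 32851 promoters. The palindromic CRE letters TGACGTCA were found in Smdt1, beginning at base -146, and in 1.79% of all promoters. The ETS letters CCGGAAG were found in Mcub on the opposite strand, beginning at base -178, and in 8.86% of all promoters. None of the 6 windows held the ERR half-site AAGGTCA (4.72% of all promoters), the NRF1 motif (4.6%) or the TATA letters TATAAA (13.6%). Mcub had 51.0% G and C in this window, close to the median of 52.7% over all promoters, and the other 5 genes had 61.7% to 72.3%.

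None of the 8 genes was called different between TG and NTG hearts. The rule for a call was a log2 fold change beyond 0.5 in either direction together with a Benjamini-Hochberg adjusted p below 0.05, over all 14774 genes, in the quasi-likelihood test of edgeR. By that rule 0 genes were called higher (0% of those tested) and 0 lower (0%), and the smallest adjusted p of any gene was 0.196. Before adjustment, 1305 genes had a p below 0.05 with a higher level in TG (8.83%) and 1442 with a lower one (9.76%), among them 1 higher and 1 lower member, Smdt1 and Micu2. DESeq2 called 228 genes higher (1.54%) and 353 lower (2.39%), and 0 of the 8. The fitted log2 fold change was above 0 in 4 members and below 0 in the other 4, with a median of 0.02, beside 48.7% above 0 and a median of -0.01 over all genes tested. The 3 hearts of each group did not overlap for Smdt1, Micu2 and Slc8b1, which is 37.5% of the members against 23.5% of all genes tested (11.2% higher and 12.3% lower in TG). An exact permutation test over 3 against 3 hearts cannot go below a two-sided p of 0.1.

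**Figure D1:**
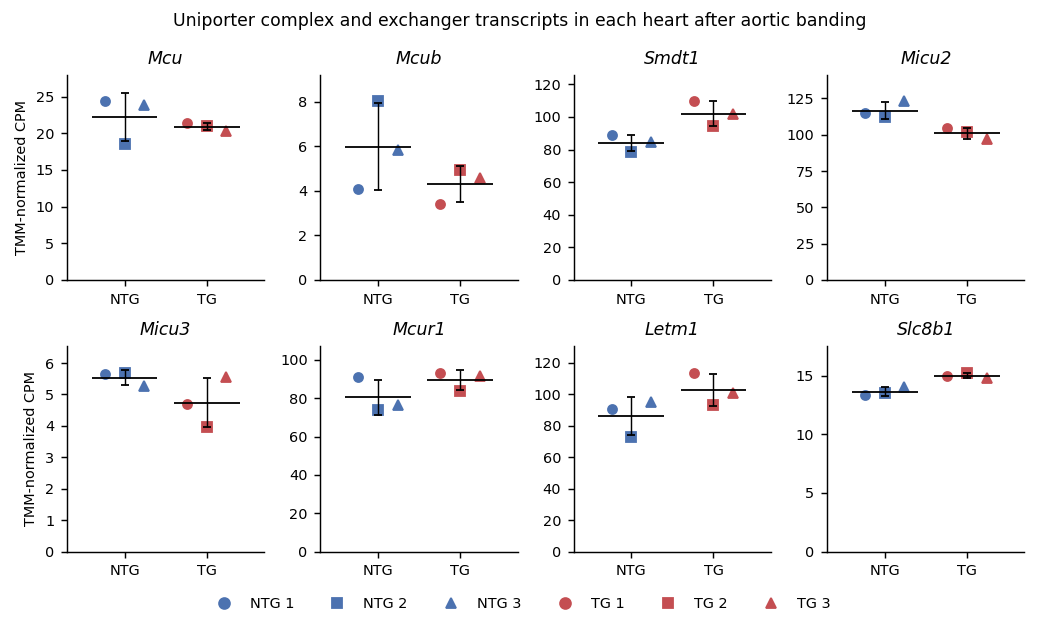
TMM-normalized CPM (vertical axis, from 0) of the 8 genes in each heart, with NTG in blue and TG in red; the symbol gives the replicate number, the horizontal line the group mean and the bar 1 SD (n = 3). TG hearts lie above all NTG hearts for Smdt1 and Slc8b1 and below them for Micu2, and NTG 2 has the highest Mcub and the lowest Mcu value.

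Mcu, Mcub and Smdt1 differed from each other in their values. Mcu (ENSMUSG00000009647, chr10:59446984-59616692, minus strand) was at 24.4, 18.5 and 23.8 CPM in NTG 1 to 3 and at 21.3, 20.98 and 20.4 CPM in TG 1 to 3. The TG hearts lay inside the range of the NTG hearts. Its log2 fold change was -0.09 (SE 0.13, 95% interval -0.39 to 0.21, adjusted p = 0.732 in edgeR), and the interval leaves room for a difference of either sign. NTG 2 was the lowest of the 6 hearts. The value was -0.21 without NTG 2 (edgeR adjusted p = 0.534), -0.02 without NTG 1 (edgeR adjusted p = 0.942) and -0.04 without NTG 3 (edgeR adjusted p = 0.929). With library size alone in place of TMM, the value of Mcu was -0.17 (edgeR adjusted p = 0.467).

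Mcub (ENSMUSG00000027994, chr3:129914960-129970206, minus strand) was at 4.10, 8.02 and 5.84 CPM in NTG and at 3.39, 4.95 and 4.57 CPM in TG. These values rest on 47 to 151 counts per heart, among the lowest of the 8 genes. NTG 1 lay within the TG range and NTG 2 above all other hearts, so the groups overlapped. The log2 fold change was -0.48, the largest in size among the members, with an SE of 0.28, a 95% interval of -1.12 to 0.17 and an adjusted p of 0.382 in edgeR. Single NTG hearts moved this value, to -0.69 without NTG 1 (edgeR adjusted p = 0.132) and to -0.21 without NTG 2 (edgeR adjusted p = 0.805). Macrophage markers (7 genes, each above 0 in at least 1 library) were also highest in NTG 2. Their summed level was 1480 CPM there, against 807 and 858 CPM in NTG 1 and NTG 3 and 596 to 832 CPM in TG. Fibroblast markers (7 genes, each above 0 in at least 1 library) were likewise highest in NTG 2. They summed to 7286 CPM there, against 3766 and 4678 CPM in NTG 1 and NTG 3, and to less in every TG heart. The part of these cells in the Mcub values was not tested. In bulk tissue, fewer cells of a type and less RNA per cell cannot be told apart.

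Smdt1 (ENSMUSG00000022452, chr15:82338959-82349091, plus strand) had 88.7, 78.5 and 84.9 CPM in the NTG hearts and 109.6, 94.8 and 101.9 CPM in the TG hearts. Every TG heart lay above every NTG heart. The fitted level was 1.21 times that of NTG, a log2 fold change of 0.28 (SE 0.096, 95% interval 0.060 to 0.50), with an unadjusted p of 0.0188 and an adjusted p of 0.213 in edgeR. When NTG 1 was left out, the value was 0.32 (edgeR adjusted p = 0.104). A smaller p was found for 8.81% of all genes tested. Smdt1 shares 245 exon bases on the same strand with Pheta2, which had 19 to 46 counts per heart, and while the authors counted with featureCounts, its setting for reads in shared bases is not given in the sources used here, so the 1300 to 1667 counts of Smdt1 are uncertain to that extent.

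Among the gatekeepers, Micu2 had the plainest separation. Micu2 (ENSMUSG00000021973, chr14:57916261-57999262, minus strand) was at 115, 112 and 123 CPM in NTG 1 to 3 and at 104, 102 and 96.9 CPM in TG 1 to 3. All TG hearts lay below all NTG hearts. The log2 fold change was -0.21 (SE 0.087, 95% interval -0.41 to -0.01), with an unadjusted p of 0.0429 and an adjusted p of 0.254 in edgeR, and it was -0.22 without NTG 1 (edgeR adjusted p = 0.190). Micu3 (ENSMUSG00000039478, chr8:40307458-40386308, plus strand), a gatekeeper best known from neurons, was at 5.67, 5.68 and 5.26 CPM in NTG and at 4.69, 3.98 and 5.56 CPM in TG. TG 1 and TG 2 lay below the NTG range and TG 3 inside it. Its log2 fold change of -0.22 had an SE of 0.20 on 65 to 107 counts per heart (edgeR adjusted p = 0.552). It was -0.11 without TG 2, -0.36 without TG 3 and -0.21 without NTG 1 (edgeR adjusted p = 0.803, 0.510 and 0.605).

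Mcur1 (ENSMUSG00000021371, chr13:43538393-43560191, minus strand), described as a scaffold for uniporter assembly, had 90.9, 73.9 and 76.6 CPM in the NTG hearts and 93.1, 83.7 and 91.6 CPM in the TG hearts. The groups overlapped through NTG 1, which lay close to the TG hearts. The log2 fold change was 0.15 (SE 0.11, edgeR adjusted p = 0.453) with all hearts and 0.25 (edgeR adjusted p = 0.154) without NTG 1, and 0.09 (edgeR adjusted p = 0.781) without NTG 2. With library size alone in place of TMM, it was 0.07 (edgeR adjusted p = 0.688).

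Both exchangers had fitted values above 0. Letm1 (ENSMUSG00000005299, chr5:33739673-33782817, minus strand) was at 90.8, 72.6 and 95.1 CPM in NTG and at 114, 93.5 and 101 CPM in TG. TG 2 lay below NTG 3, so the groups overlapped. The log2 fold change was 0.25 (SE 0.13, 95% interval -0.04 to 0.55, edgeR adjusted p = 0.323), and it was 0.14 without NTG 2 (edgeR adjusted p = 0.662), the lowest of the NTG hearts for this gene, and 0.29 without NTG 1 (edgeR adjusted p = 0.231). Slc8b1 (ENSMUSG00000032754, chr5:120511168-120534024, plus strand) was at 13.4, 13.5 and 14.1 CPM in NTG 1 to 3 and at 15.0, 15.2 and 14.8 CPM in TG 1 to 3. Its TG hearts were all above its NTG hearts by a small step, with a group mean of 13.6 ± 0.364 CPM (SD, n = 3) in NTG and 15.0 ± 0.211 CPM (SD, n = 3) in TG. The log2 fold change was 0.14 (SE 0.11, 95% interval -0.11 to 0.39, edgeR adjusted p = 0.505), and 0.12 without NTG 1 (edgeR adjusted p = 0.585). The separation rested on the TMM scaling. With library size alone the hearts overlapped, and the log2 fold change of Slc8b1 was 0.05 (edgeR adjusted p = 0.819). On that scale, also chosen after seeing the data for this count, Smdt1 was higher in every TG heart and Micu2 and Micu3 lower, beside 8.67% and 14.7% of all genes.

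**Figure D2:**
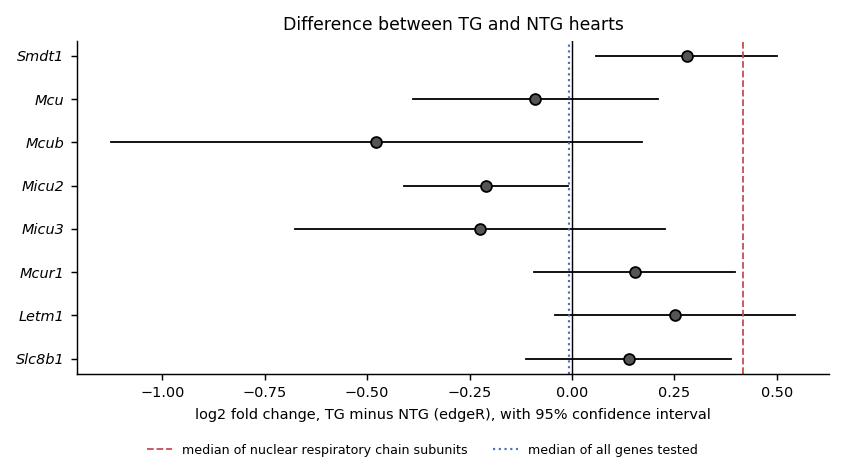
Log2 fold change of TG over NTG from edgeR (horizontal axis) for the 8 genes (circles), with 95% confidence intervals (lines); the dotted line is the median of all genes tested (-0.01) and the dashed line the median of 80 nuclear respiratory chain genes (0.42). Only the intervals of Smdt1 and Micu2 leave out 0, before adjustment, and every member lies to the left of the respiratory chain median.

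Levels were compared between genes per kilobase of gene length in the table, as the mean of the 6 hearts. Smdt1 was highest with 62.9 CPM per kilobase (53.1 to 74.1 over the hearts), followed by Micu2 with 35.3 (31.4 to 39.9). Mcur1 came next with 12.01 CPM per kilobase (10.4 to 13.2) and then Letm1 with 9.78 (7.53 to 11.8). The ranges of Mcur1 and Letm1 overlapped, although Mcur1 was above Letm1 in 6 of 6 hearts. Slc8b1, Mcub and Mcu followed with means of 4.14, 3.90 and 3.11 CPM per kilobase. The range of Mcub overlapped those of both others, with Slc8b1 above Mcub and Mcub above Mcu in 4 of 6 hearts each, whereas Slc8b1 (3.86 to 4.40) lay above Mcu (2.67 to 3.51) in every heart. Micu3 was lowest at 0.835 CPM per kilobase (0.647 to 0.923). These lengths count all annotated exons, and with the length of the principal transcript, an alternative chosen after seeing the data, Mcu ranked 5, Slc8b1 6 and Mcub 7, while the other ranks stayed as they were. On either length, messages of the accessory subunits Smdt1 and Micu2 were more abundant than that of the pore.

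Message levels were then read within each heart as the ratio of a gene to Mcu per kilobase, which removes the library size from the comparison. These are ratios of RNA, and the proteins of these genes were not measured here. The ratio of Smdt1 to Mcu was 17.1, 19.9 and 16.7 in NTG 1 to 3 and 24.1, 21.2 and 23.5 in TG 1 to 3, and all TG hearts lay above all NTG hearts. The mean was 17.9 ± 1.72 (SD, n = 3) in NTG and 22.9 ± 1.52 (SD, n = 3) in TG, a log2 difference of 0.36 (exact permutation p = 0.1, the smallest possible, and 0.233 adjusted over the 7 ratios). The ratio of Letm1 to Mcu was 2.68, 2.82 and 2.87 in NTG and 3.82, 3.20 and 3.56 in TG, with a log2 difference of 0.34 (exact permutation p = 0.1, adjusted 0.233). The ratio of Mcur1 to Mcu was 3.66, 3.91 and 3.15 in NTG and 4.28, 3.91 and 4.41 in TG, with a log2 difference of 0.24 (exact permutation p = 0.1, adjusted 0.233). For Mcur1 the separation was marginal, since TG 2 and NTG 2 shared the value 3.91 after rounding. The log2 difference of Mcur1 to Mcu was 0.15 without NTG 3. Of all other genes tested, 17.7% had a higher ratio to Mcu in every TG heart than in any NTG heart, and 3.31% a lower one, against 3 and 0 of the 7 members, so that higher ratios to Mcu were common in this table.

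Neither gatekeeper separated all 6 hearts by this measure. Micu2 stood at 10.6, 13.6 and 11.6 times Mcu in NTG and at 10.99, 10.9 and 10.7 times in TG, with a log2 difference of -0.13 (exact permutation p = 0.4). The overlap came from NTG 1, and without NTG 2 the difference was -0.03. The ratio of Micu3 to Mcu averaged 0.286 ± 0.0524 (SD, n = 3) in NTG and 0.256 ± 0.0474 (SD, n = 3) in TG (exact permutation p = 0.5). Its log2 difference of -0.16 was -0.01 without NTG 2, -0.03 without TG 2 and -0.30 without TG 3. For Slc8b1 the ratio to Mcu was 1.10, 1.46 and 1.18 in NTG and 1.41, 1.46 and 1.46 in TG, with NTG 2 at the level of the TG hearts (exact permutation p = 0.4). The ratio of Mcub to Mcu, which sets the inhibitory paralogue against the pore subunit, was 0.884, 2.28 and 1.29 in NTG and 0.836, 1.24 and 1.18 in TG. NTG 2 had the highest ratio, and whether a ratio lies above or below 1 depends on the length used, since the principal transcript of Mcu is much shorter than all its exons together. The log2 difference of -0.36 (exact permutation p = 0.4, adjusted 0.467) came to 0.0018 without NTG 2. Without NTG 1, the log2 difference to Mcu was -0.68 for Mcub, 0.33 for Smdt1, 0.31 for Letm1, 0.26 for Mcur1, 0.13 for Slc8b1, -0.21 for Micu2 and -0.21 for Micu3. Left with 3 against 2 hearts, which was chosen after seeing the data, Smdt1, Letm1 and Mcur1 had a higher ratio in every TG heart (3 of 7 members, against 21.2% of all genes) and Mcub and Micu2 a lower one (2 of 7, against 13.4%), while Micu3 and Slc8b1 overlapped.

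**Figure D3:**
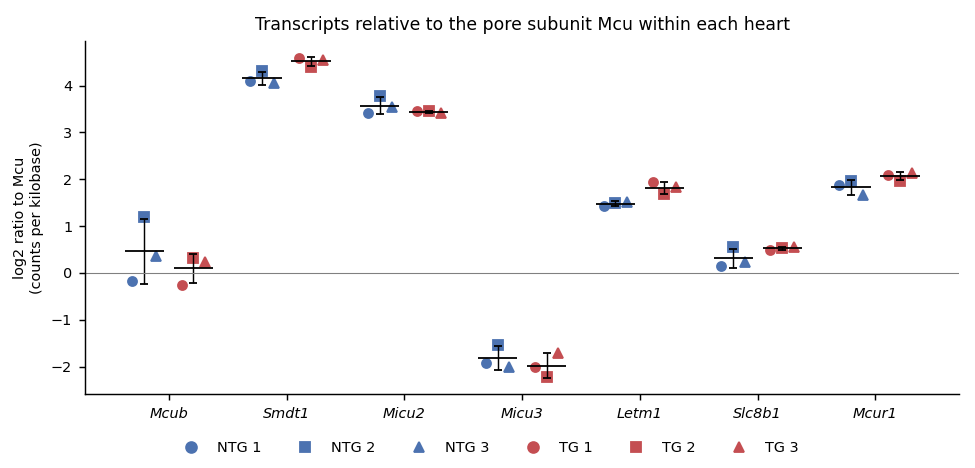
Log2 ratio of each gene to Mcu, in counts per kilobase within a heart (vertical axis; 0 means equal levels), with NTG in blue and TG in red, replicate numbers as symbols, group means as lines and 1 SD as bars (n = 3). The TG hearts lie above the NTG hearts for Smdt1, Letm1 and Mcur1, and NTG 2 is the highest heart for the ratio of Mcub.

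The nuclear genes of the respiratory chain were taken as a reference, to ask whether the uniporter genes had values like theirs. The mean log2 level of 80 nuclear genes of the chain, centred over the 6 hearts, was 0.01, -0.46 and -0.24 in NTG 1 to 3 and 0.34, 0.02 and 0.33 in TG 1 to 3. The groups were set apart on this mean only by the small step from NTG 1 to TG 2. The 80 genes had a median log2 fold change of 0.42, with 0 called by edgeR, 46 higher at an unadjusted p under 0.05 and 23 called higher by DESeq2, and cardiomyocyte markers were also fitted higher in 8 of 8 genes. When the mean of the chain was taken from each heart, all 8 members had lower values in TG than in NTG on average, as did 90.1% of all genes tested. Mcu relative to the chain was 0.18, 0.25 and 0.39 in NTG and -0.35, -0.06 and -0.41 in TG, a difference of -0.54 on the log2 scale. Micu2 relative to the chain was 0.08, 0.51 and 0.42 in NTG and -0.40, -0.12 and -0.49 in TG, a difference of -0.67. Both genes had every TG heart below every NTG heart. Micu3, with a difference of -0.70, and Mcur1, with -0.31, were separated in the same way, and the exact permutation p was 0.1 for these 4 genes (0.2 adjusted over the 8). Such a separation downward was found in 39.5% of all genes tested (a separation upward in 1.3%), against 4 of 8 members, so the members did not stand out from the table by this count.

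The other 4 members had overlapping groups relative to the chain. The difference was -0.90 for Mcub, -0.33 for Slc8b1, -0.21 for Letm1 and -0.19 for Smdt1, each with an exact permutation p of 0.2. Mcub came to -0.55 and Smdt1 to -0.12 without NTG 2, Slc8b1 to -0.22 without NTG 2, and Letm1 to -0.13 without NTG 3. Smdt1 and Letm1 thus had the smallest distance to the chain among the members. Smdt1 relative to the chain was -0.06, 0.23 and 0.12 in NTG and -0.10, 0.01 and -0.19 in TG. Without NTG 1, the 8 differences ran from -1.26 for Mcub to -0.26 for Smdt1, with -0.59 for Mcu and -0.80 for Micu2, and every member was lower in all TG hearts than in NTG 2 and NTG 3. The same held for 70.6% of all genes tested, with 3.27% higher.

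**Figure D4:**
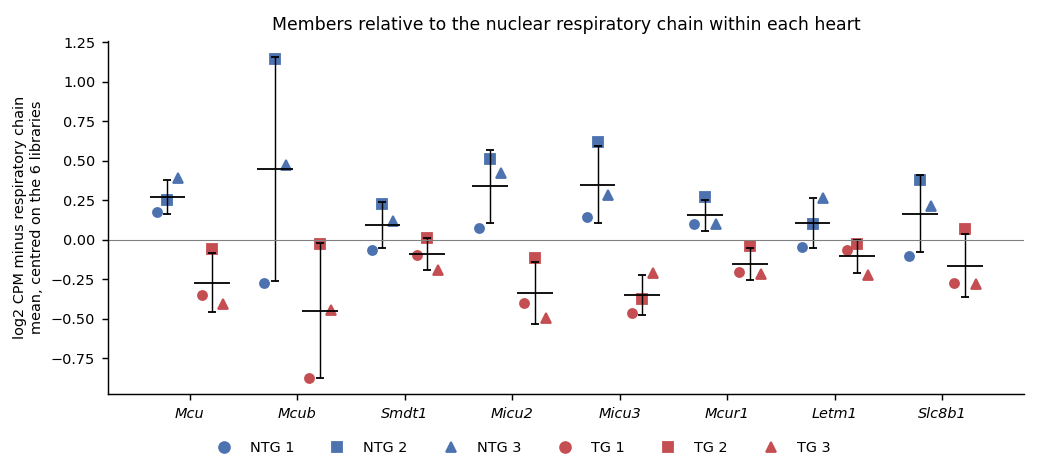
Level of each gene minus the mean of 80 nuclear respiratory chain genes in the same heart (log2 CPM, centred on the 6 hearts, vertical axis), with NTG in blue and TG in red, replicate numbers as symbols, group means as lines and 1 SD as bars (n = 3). Mcu, Micu2, Micu3 and Mcur1 have all TG hearts below all NTG hearts, and Smdt1 and Letm1 have the smallest differences.

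Across the 6 hearts the members did not vary as 1 block. Smdt1 and Letm1 varied together (Pearson r = 0.905, n = 6 hearts), whereas Mcub ran opposite to Mcur1 (r = -0.934) and to Letm1 (r = -0.879). Mcu had no close partner among the members, and its r with Smdt1 was 0.05. These values describe 6 libraries in 2 groups, each gene being read from the same libraries with their depth and cell make-up, and carry no test. Among 13743 genes compared, those most like Mcu over the 6 hearts were Trp53inp2 (r = 0.973), Sike1 (r = 0.972) and Hdac8 (r = 0.970). The genes most like Mcub were Stt3b (r = 0.997), Alpk1 (r = 0.992) and Stbd1 (r = 0.991), and those most like Smdt1 were Guk1 (r = 0.997), Znrf1 (r = 0.996) and Mrpl12 (r = 0.995). An r over 0.9 was shared by 1057 genes with Smdt1, by 548 with Mcub and by 37 with Mcu, so Smdt1 followed a pattern common in this table and Mcu a rare one.

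The wider pathway of mitochondrial calcium handling held 38 further genes, of which 37 were tested, and 0 were called by edgeR or DESeq2. Of these, 27 had fitted values above 0 and 10 below (73.0% above, against 48.7% of all genes), with a median log2 fold change of 0.14, and 18.9% had groups that did not overlap, below the 23.5% of all genes. At an unadjusted p under 0.05, 5 were higher and 1 was lower, beside 8.83% and 9.76% of all genes. Slc8a3, a plasma membrane sodium and calcium exchanger also placed in mitochondria, had 0 to 2 counts per heart and was not tested.

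Among 8 other uniporter regulators and proteases of EMRE quality control, 5 were fitted higher and 3 lower, with a median log2 fold change of 0.10. Spg7, a subunit of the m-AAA protease that degrades EMRE not built into the complex, was at 93.8, 74.2 and 87.0 CPM in NTG and at 121, 99.4 and 113 CPM in TG. Its TG hearts were all above its NTG hearts, as for EMRE itself, with a log2 fold change of 0.39 (SE 0.12, edgeR adjusted p = 0.204). Maip1, which protects EMRE before assembly, had a log2 fold change of 0.25 (edgeR adjusted p = 0.312), also without overlap. Yme1l1, the protease that faces the intermembrane space, had a log2 fold change of -0.06 with overlapping groups (edgeR adjusted p = 0.772).

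The 13 genes that supply calcium across the outer membrane and at contacts with the reticulum had 10 fitted values above 0 and 3 below, with a median of 0.07. Rmdn3, a tether between the organelles, was at 15.5, 14.4 and 15.6 CPM in NTG and at 20.0, 17.6 and 20.2 CPM in TG. The groups did not overlap, and the log2 fold change was 0.34 (edgeR adjusted p = 0.211). Its reticulum partner Vapb had 0.17 (edgeR adjusted p = 0.328). The mitophagy receptor Fundc1 had -0.08 with overlapping groups (edgeR adjusted p = 0.676). With library size alone in place of TMM, Vapb was at 0.08 and Fundc1 at -0.17 (edgeR adjusted p = 0.629 and 0.401).

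Other inner membrane transport and the permeability transition made a list of 7 genes, of which 6 were tested, 4 fitted higher and 2 lower, with a median of 0.21. Ghitm (TMBIM5), described as a calcium and proton exchanger that interacts with Letm1, was at 504, 403 and 432 CPM in NTG and at 573, 509 and 578 CPM in TG. Its groups did not overlap, with a log2 fold change of 0.31 (edgeR adjusted p = 0.262). Ppif, which codes for cyclophilin D of the permeability transition, had a log2 fold change of 0.45 with overlapping groups (edgeR adjusted p = 0.313), and 0.23 without NTG 2. The values of the uncoupling protein gene Ucp2 and of Letmd1 were -0.31 (edgeR adjusted p = 0.393) and -0.22 (edgeR adjusted p = 0.456), again with overlap, and came to -0.15 and -0.09 without NTG 2. Without NTG 1 they were -0.50 and -0.33, and Ppif was at 0.63. Then 0 of these 3 genes were called by edgeR, and Ppif was called by DESeq2 (adjusted p = 0.0444). That DESeq2 fit called 896 genes higher and 877 lower of 15136 tested.

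In the list of 10 calcium-sensitive enzymes and carriers, 8 genes were fitted higher and 2 lower, with a median log2 fold change of 0.23. Idh3b, a subunit of the isocitrate dehydrogenase that calcium stimulates, was at 490, 320 and 393 CPM in NTG and at 612, 512 and 603 CPM in TG. All TG hearts were above all NTG hearts, with a log2 fold change of 0.52 (SE 0.17, edgeR adjusted p = 0.211). Without the library labelled NTG 1, Idh3b was called, with a log2 fold change of 0.69 and an edgeR adjusted p of 0.0447, in a fit that called 404 genes higher (2.67%) and 432 lower (2.85%). It was the only 1 of the 37 pathway genes called there, and 0 of the 8 members were. The aspartate and glutamate carrier Slc25a12 had a log2 fold change of 0.44 (edgeR adjusted p = 0.231), which was 0.28 without NTG 2 and 0.61 without NTG 1 (edgeR adjusted p = 0.0501), and the ATP-magnesium carrier Slc25a24 had -0.32 with all TG hearts below all NTG hearts (edgeR adjusted p = 0.221). For Slc25a25, a carrier of the same family as Slc25a24, the value was -0.03 (SE 0.31, edgeR adjusted p = 0.974).

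**Figure D5:**
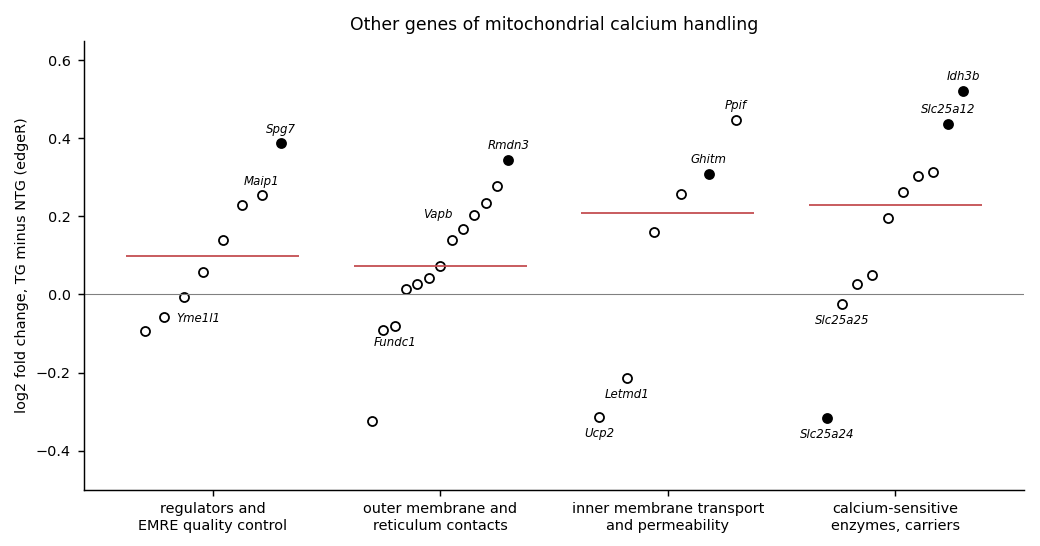
Log2 fold change of TG over NTG from edgeR (vertical axis) for the 37 tested genes of 4 lists of mitochondrial calcium handling (horizontal axis); filled circles have an unadjusted p under 0.05, open circles do not, and red lines are list medians (0.10, 0.07, 0.21 and 0.23 from left to right). The labelled genes are those named in the text, and Idh3b is the highest of all.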

How the data were processed

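The authors selected poly-A RNA from left ventricles, sequenced it on an Illumina instrument, counted reads with featureCounts, and deposited raw counts per gene, 1 column per heart, without normalization or pooling. The submitters' processing notes name HISAT2, DESeq2 and the build GRCh38, although gene identifiers and positions are those of mouse; the positions of all 8 members are identical in GENCODE M21 (GRCm38). The strand setting and the handling of reads with several matches are not given in the sources used here.

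The main test was that of edgeR 4.0.16 in R 4.3.3 (TMM, filterByExpr by group, robust quasi-likelihood test on all 6 libraries, Benjamini-Hochberg adjustment over 14774 genes). A call needed a log2 fold change beyond 0.5 in either direction and an adjusted p below 0.05. CPM are TMM-normalized, and log2 CPM of the respiratory chain comparison has a prior count of 2. DESeq2 1.42.0 and limma 3.58.1 (voom) were alternatives. The edgeR test was checked on simulated counts. Ratios and relative levels were tested by two-sided exact permutation over hearts. Pathway genes named are the 2 with the smallest p in each direction of each list, of which 2 are not reported here by name and stay in the counts, and genes like a member are the 3 with the highest r. The members and lists were chosen with earlier results of these data known. The hearts' numbers do not pair them (correlation of deviations 0.0807, 0.173 and -0.252 for same-numbered hearts). Every pair of libraries differed by more than counting error (chi-square of 15.5 or more per gene), and 0 columns were left unmatched.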

Additional observations from a re-analysis of the deposited data

How the results depend on the processing

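The 8 members stayed uncalled in all 26 alternatives. Their log2 fold changes kept direction in 200 of 200 values from 25 settings, and none of these met the rule for a call. The value of Mcub, -0.48 in the main fit, passed 0.5 in size in some settings and fell short in others. It was -0.57 with library size alone, -0.69 without NTG 1 and -0.21 without NTG 2 in edgeR. Counts over all genes did not hold. Calls came to 116 higher and 116 lower with no low-count filter, 228 and 353 with DESeq2, and 206 and 339 with edgeR's likelihood-ratio test. Leaving out single hearts gave 0 to 896 higher and 0 to 877 lower calls over edgeR and DESeq2. The highest counts came without NTG 1, with 404 and 432 in edgeR and 896 and 877 in DESeq2, of 15136 genes. Pathway calls ranged from 0 to 3 in the same fits; without NTG 1, edgeR called 1 gene, Idh3b, and DESeq2 3 genes, Idh3b, Slc25a12 and Ppif. Library size alone moved the median log2 fold change of all genes from -0.01 to -0.09.

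The hearts' numbers do not pair them, and with the replicate block 84 genes were higher and 147 lower, or 77 and 142 with the block and a gene length offset, with 0 members called in either. Under the block the log2 fold change was 0.28 for Smdt1, -0.21 for Micu2 and -0.45 for Mcub.

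Among single values, the log2 difference of Mcub to Mcu ranged from -0.68 to 0.0018 when 1 heart was left out, reversed without NTG 2 only. Yme1l1 ranged from -0.12 to 0.014 and reversed without NTG 1. Slc25a25 ranged from -0.35 to 0.26, reversed without NTG 2, NTG 3 or TG 3, and was 0.0081 with the gene length offset. The causes were not tested. With 3 hearts a group the SE of the members lay between 0.087 and 0.28 on the log2 scale, and Mcub and Micu3 rest on at most 151 and 107 counts per heart.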
